A study of Mus musculus with 4 samples.

Results

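The SLC25 carriers are the family of membrane proteins that move metabolites, nucleotides, cofactors and ions across the inner membrane of the mitochondrion. The family was taken here as the genes whose symbol begins with Slc25a together with Ucp1, Ucp2, Ucp3, Mtch1 and Mtch2, which gave 52 genes of the 25169 genes used. All 52 are protein-coding in RefSeq, and they lie on 19 chromosomes. They were followed in ribosome profiling of E14, a mouse embryonic stem cell line with the labelled genotype WT, kept in serum and leukemia inhibitory factor on gelatin without feeder cells being named. Ribosome profiling sequences the RNA pieces that ribosomes shield from a nuclease, so a gene's value follows both its mRNA and the ribosomes on it, and these cannot be told apart here. The control group held 2 libraries of cells grown with DMSO, the solvent, and the treated group 2 libraries of cells grown with PD at 1 µM; each treatment lasted 3 passages. The compound is named only as PD in the labels, and the study asked about the kinase Mek. No label says that the replicates were separate cultures, and p-values then describe only how these libraries vary, which may be technical. In bulk samples, fewer cells of a type and less RNA per cell cannot be told apart.

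Carriers share a fold of repeated pairs of membrane helices and work mostly as exchangers, bringing in one substrate as another leaves. The ADP/ATP and phosphate carriers feed ATP synthase, the di- and tricarboxylate and the aspartate carriers link the mitochondrial to the cytosolic pools of carbon and reducing power, and the carnitine carrier brings fatty acids in for oxidation. Carriers are made on cytosolic ribosomes and enter through the TOM complex, the small TIM chaperones and the TIM22 complex. Of the uncoupling proteins, Ucp1 lets protons leak, and Mtch1, Mtch2 and Slc25a46 are divergent members that sit in the outer membrane.

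The libraries differed in depth. Taking DMSO replicate 1 as 1, the steps between the deposited values gave DMSO replicate 2 a depth of 1.42, PD replicate 1 one of 0.464 and PD replicate 2 one of 0.201. Depth thus went with treatment, and its part in the results below was not tested. The values are FPKM, the number of fragments per length of transcript and per mapped fragment of the library. The same steps gave, for most genes, the reads behind a value; these recovered reads are a lower bound, since any common multiple of them gives equal FPKM values. All 8 embryonic stem cell markers averaged at least 1 FPKM, with Pou5f1 between 228 and 326 FPKM and Klf4 between 0.819 and 3.02. Of the 8, 3 were higher in both PD libraries than in both DMSO libraries, and 2 were lower. Those shares were 17.5% and 18.3% over all genes averaging at least 1 FPKM. Of 8 feeder and fibroblast markers, 2 were at that level, and their summed level was 106 and 31.9 FPKM under DMSO and 209 and 189 under PD. Nearly all of that sum was Vim, which stem cells can also express; the part of such cells in the results was not tested.

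The carrier family was expressed very unevenly. Of the 52 genes, 29 averaged at least 1 FPKM over the 4 libraries, the level set for comparing treatments, and 23 did not. Slc25a16 at 1.19 FPKM and Slc25a36 at 1.27 lay just inside that level, and Slc25a44 at 0.847 and Slc25a31 at 0.816 just outside. Groups are said below not to overlap where both PD libraries were above, or both were below, the DMSO libraries, which held for 35.8% of all 9741 genes at that level. Only 11 carrier genes reached a mean of 10 FPKM. The summed level of the family was 851 and 677 FPKM under DMSO and 905 and 650 under PD, so the groups overlapped. This was 0.320% and 0.267% of the sum over protein-coding genes in DMSO and 0.342% and 0.245% in PD. The 3 highest members of each library took between 59.1% and 72.9% of the family's sum.

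Phosphate and adenine nucleotide carriers, which supply ATP synthase with its substrates, stood at the top. Slc25a3, the phosphate carrier (mm10, chromosome 10, 91116574 to 91123967), was at 455 and 263 FPKM under DMSO and at 435 and 257 under PD. Its mean of 353 FPKM exceeded that of 99% of the 8861 protein-coding genes tested, and its replicates differed 1.73-fold in DMSO and 1.69-fold in PD while the PD mean was 0.963 times the DMSO mean. It made up between 38.9% and 53.4% of the family's sum. In RefSeq it overlaps the small RNA gene Gm24119, for which no values are listed, and the part of such reads was not tested. Slc25a4, the ADP/ATP carrier of heart and muscle (chromosome 8, 46207168 to 46211062), followed at 124 and 85.5 FPKM in DMSO and at 105 and 81.6 in PD. These groups overlapped for both genes. The level of Slc25a3 was between 3.08 and 4.12 times that of Slc25a4 in the 4 libraries, and no library of one reached a library of the other.

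Slc25a5, the ADP/ATP carrier of proliferating cells (chromosome X, 36795597 to 36798808), had the lowest difference of the family. It stood at 11.3 and 5.3 FPKM under DMSO and at 1.7 and 0.981 under PD, so that every PD library lay below every DMSO library. The mean was 8.28 ± 4.21 FPKM with DMSO and 1.34 ± 0.511 with PD (SD, n = 2). The log2 difference, -1.92 (SE 0.45), did not pass the test (limma adjusted p = 0.761). The PD values rested on few reads: 57 and 38 reads were recovered for DMSO replicates 1 and 2, against 4 for PD replicate 1 and 1 for PD replicate 2. Slc25a4 exceeded Slc25a5 by 11.0 and 16.1 times under DMSO and by 61.9 and 83.2 times under PD. RefSeq lists 2 pseudogenes under the name of Slc25a5, Slc25a5-ps and Gm5560, neither of which is a row of the table used, and the sources used here do not say how reads matching several copies were shared. The level of Slc25a5 is therefore uncertain, and the part of such copies was not tested. The third carrier of this kind, the germ cell form Slc25a31, averaged under 1 FPKM and was at 0.679 and 0.24 FPKM in DMSO and at 1.22 and 1.12 in PD.

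The ATP-Mg/phosphate carriers, which adjust the adenine nucleotide pool of the matrix and are regulated by calcium, were low apart from Slc25a25. Slc25a25 was at 5.26 and 8.33 FPKM in DMSO and at 8.31 and 11.6 in PD, where PD replicate 1 lay just below DMSO replicate 2. Its relatives Slc25a23, Slc25a24 and Slc25a41 stayed under 1 FPKM in every library, and Slc25a54 was listed at 0 in all 4.

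**Figure D1:**
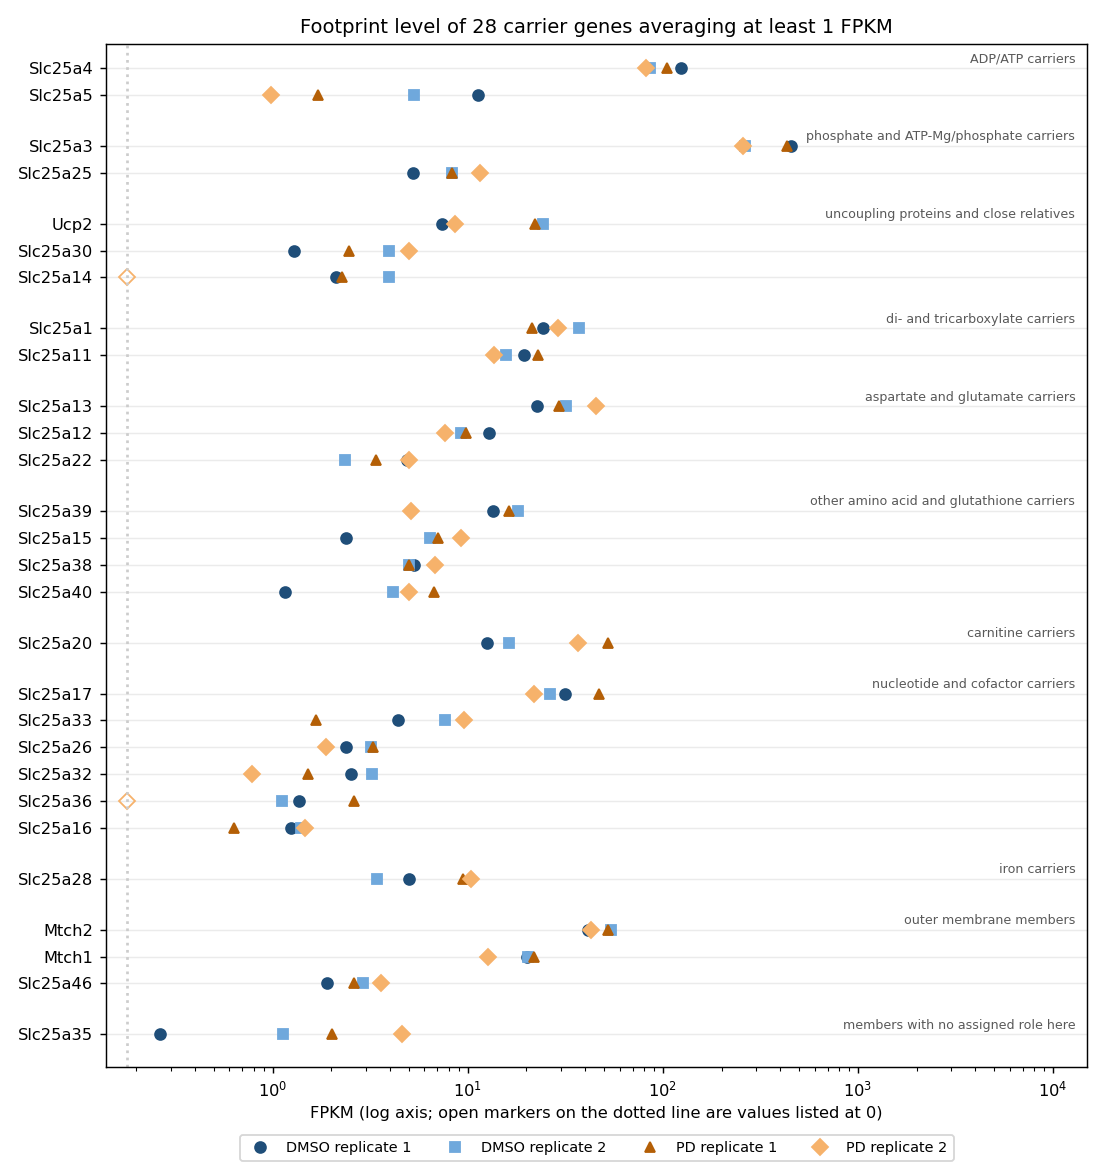
Level, on a log axis, of 28 of the 29 carrier genes that average 1 FPKM or more, grouped by role; each marker is 1 library (circles and squares DMSO, triangles and diamonds PD) and open markers are values listed at 0. Slc25a3 lies at 257 to 455 FPKM, and in most rows the PD and DMSO markers are not fully separated. Among the separated rows are Slc25a20 and Slc25a28, with PD to the right, and Slc25a5, with PD to the left.

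Slc25a20, the carnitine and acylcarnitine carrier that brings fatty acyl groups into the matrix (chromosome 9, 108662136 to 108684642), had the highest difference of the family. It stood at 12.6 and 16.3 FPKM under DMSO and at 52.5 and 36.8 under PD. The lowest PD library was above the highest DMSO library, and the PD mean was 3.09 times the DMSO mean (44.6 ± 11.1 against 14.4 ± 2.62 FPKM, SD, n = 2). The log2 difference was 1.55 (SE 0.31), which did not pass (limma adjusted p = 0.669). Its values rested on 90 and 165 recovered reads in DMSO and on 174 and 53 in PD, so that PD replicate 1 held more reads than either DMSO library at less depth. Within the family it ranked 11 and 10 under DMSO and 3 and 5 under PD, and its share of the family's sum was 1.48% and 2.41% in DMSO against 5.8% and 5.66% in PD. The deposited confidence bounds of PD replicate 1, 28.8 to 76.1 FPKM, lay above those of both DMSO libraries, whose upper bounds were 20.1 and 25.5. The bounds of PD replicate 2, from 19.5 to 54.2 FPKM, overlapped both. Slc25a48, the other gene of this role group, was listed at 0 in every library.

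Slc25a28 (chromosome 19, 43663801 to 43674881) is one of the mitoferrins, which import iron for heme and iron-sulfur clusters. It was at 5.02 and 3.43 FPKM in DMSO and at 9.43 and 10.5 in PD, again with no overlap between the groups. Its means were 4.23 ± 1.12 and 9.94 ± 0.726 FPKM (SD, n = 2), and the log2 difference of 1.08 (SE 0.29) did not pass (limma adjusted p = 0.803). The bounds of every PD library overlapped those of every DMSO library, and the recovered reads were 31 and 30 in DMSO and 27 and 13 in PD. Slc25a37, the mitoferrin of red cell precursors, stayed under 1 FPKM: its values were 0.273 and 0.193 FPKM in DMSO, 0.706 in PD replicate 1 and 0 in PD replicate 2. Where Slc25a37 was above 0, Slc25a28 exceeded it by 13.4 to 18.4 times.

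Among the amino acid and glutathione carriers, Slc25a15 and Slc25a40 lay higher in both PD libraries. Slc25a15, the ornithine carrier that links the matrix to the urea cycle and to polyamine synthesis (chromosome 8, 22375550 to 22398621), was at 2.39 and 6.42 FPKM in DMSO and at 7.02 and 9.23 in PD. The gap between the DMSO libraries, 2.69-fold, was wider than the 1.84-fold ratio of the group means, and the log2 difference was 0.85 (SE 0.47; limma adjusted p = 0.837). Slc25a40, one of the glutathione importers (chromosome 5, 8422838 to 8454839), was at 1.16 and 4.14 FPKM in DMSO and at 6.72 and 5.02 in PD. For this gene too DMSO replicate 1 stood apart: the log2 difference of 1.03 (limma adjusted p = 0.837) was 0.41 without DMSO replicate 1 and 1.66 without DMSO replicate 2, and that of Slc25a15 was 0.29 and 1.42. Slc25a39, the other glutathione importer, had 13.4 and 18.1 FPKM in DMSO, 16.2 in PD replicate 1 and 5.12 in PD replicate 2. It did not share the direction of Slc25a40: PD replicate 1 lay between the DMSO libraries, and PD replicate 2 rested on 7 recovered reads. It overlaps the microRNA gene Mir6930, which was listed at 389 FPKM in DMSO replicate 2, at 595 in PD replicate 1 and at 0 in the other libraries, and reads in the shared stretch cannot be told apart here. Slc25a38, a glycine carrier that serves heme synthesis, was close to level at 5.33, 5.01, 5.01 and 6.78 FPKM, in the order DMSO then PD. The carrier for branched-chain amino acids, Slc25a44, was between 1.05 and 1.19 FPKM in 3 libraries and was listed at 0 in PD replicate 2.

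Aspartate and glutamate carriers overlapped between the groups. Slc25a13, the aspartate/glutamate carrier of liver and proliferating cells, had 22.7 and 31.7 FPKM in DMSO and 29.5 and 45.6 in PD. Slc25a12, its counterpart of brain and muscle, had 12.9 and 9.26 FPKM in DMSO and 9.8 and 7.64 in PD. Slc25a13 was the higher of the pair in every library, by 1.76 and 3.43 times in DMSO and by 3.02 and 5.97 times in PD. The glutamate carrier Slc25a22 was at 4.88 and 2.34 FPKM in DMSO and at 3.38 and 5.03 in PD, while its relative Slc25a18 was above 0 only in DMSO replicate 1, at 0.185 FPKM.

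Di- and tricarboxylate carriers overlapped as well. Slc25a1, the citrate carrier that supplies acetyl-CoA for lipid synthesis, stood at 24.3 and 37.1 FPKM in DMSO and at 21.5 and 29.1 in PD. The oxoglutarate carrier Slc25a11, a part of the malate-aspartate shuttle, stood at 19.5 and 15.7 FPKM in DMSO and at 23.0 and 13.6 in PD. It overlaps the gene Rnf167 in RefSeq, as Slc25a25 overlaps Naif1 and Slc25a26 overlaps Lrig1, and reads in the shared stretch cannot be told apart here. Of the members of at least 1 FPKM, 8 overlap another RefSeq gene, 4 of them a protein-coding one. The dicarboxylate carrier Slc25a10 and the oxodicarboxylate carrier Slc25a21 averaged under 1 FPKM.

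Carriers of nucleotides and cofactors formed the largest role group, with 9 genes of which 7 averaged at least 1 FPKM. Of these 7, 6 had a log2 difference below 0, as had 5069 of all 9741 tested genes. The sign was uncertain for some of them. Slc25a36 counted as below 0 (-0.24, SE 0.72), while its mean was 1.3 FPKM in PD and 1.24 in DMSO. Of the 7 genes, 6 overlapped between the groups, beside 35.8% of all tested genes without overlap. Slc25a32, which transports folate or flavin adenine dinucleotide (chromosome 15, 39094191 to 39112716), was the one without overlap. It had 2.52 and 3.22 FPKM in DMSO and 1.53 and 0.782 in PD, from 32 and 58 recovered reads in DMSO and 9 and 2 in PD. Its log2 difference was -0.86 (SE 0.37; limma adjusted p = 0.837). Slc25a17, a carrier of cofactors in the peroxisome, was the highest of the group at 31.4 and 26.5 FPKM in DMSO and 47.4 and 22 in PD. The pyrimidine nucleotide carrier Slc25a33 had the widest gap between its PD libraries among members above 0 in both, at 1.67 and 9.6 FPKM, with 4.38 and 7.65 in DMSO. Its relative Slc25a36 was at 1.36 and 1.12 FPKM in DMSO, at 2.61 in PD replicate 1 and at 0 in PD replicate 2. The S-adenosylmethionine carrier Slc25a26 and Slc25a16 averaged 2.68 and 1.19 FPKM. Slc25a51, which imports NAD, and Slc25a42, which transports coenzyme A, averaged 0.511 and 0.322 FPKM.

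Of the uncoupling proteins, Ucp2 was the main one. It stood at 7.39 and 24.3 FPKM under DMSO and at 22.0 and 8.58 under PD, so that the replicates of each group differed by more than the group means, which were 15.8 and 15.3 FPKM. Ucp1, the protein of brown fat, was at 0.3 FPKM in DMSO replicate 1 and was listed at 0 elsewhere, and Ucp3, the form of muscle, was at 0.288 and 0.543 FPKM in DMSO and at 0 in PD replicates 1 and 2. Ucp3 ends 6.9 kb before the start of Ucp2 on chromosome 7, yet Ucp2 exceeded it by 25.6 and 44.7 times in the DMSO libraries. The relatives Slc25a30 and Slc25a14 averaged 3.18 and 2.09 FPKM and overlapped between the groups. Slc25a30 had 1.29 and 3.95 FPKM in DMSO and 2.48 and 4.99 in PD. Slc25a27 was above 0 only in DMSO replicate 2, at 0.0228 FPKM.

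The outer membrane members overlapped between the groups. Mtch2, an insertase for helical proteins of that membrane, was at 41.4 and 54.2 FPKM in DMSO and at 52.1 and 43.0 in PD, with means of 47.8 and 47.6. Its log2 difference of -0.00099 (SE 0.28) was the middle one of the family. Mtch1 was at 20.1 and 20.3 FPKM in DMSO and at 21.7 and 12.7 in PD. Mtch2 exceeded Mtch1 by 2.06 to 3.39 times in the 4 libraries. Slc25a46, which takes part in mitochondrial fission, was at 1.9 and 2.9 FPKM in DMSO and at 2.63 and 3.59 in PD.

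Of the 6 members left without a role here, Slc25a35 alone averaged at least 1 FPKM. It was at 0.266 and 1.13 FPKM in DMSO and at 2.01 and 4.62 in PD, from 2 and 12 recovered reads in DMSO and 7 and 7 in PD. Its log2 difference was 1.32 (SE 0.51; limma adjusted p = 0.837), and it was 0.87 without PD replicate 2, 0.53 with a pseudocount of 5 and 2.23 with one of 0.1. Slc25a35 (chromosome 11, 68968131 to 68975185) overlaps Rangrf, which was itself at 0.808 and 0.57 FPKM in DMSO and 4.36 and 2.01 in PD, so which of these genes some reads came from cannot be told apart here. Slc25a34, Slc25a43 and Slc25a53 averaged between 0.251 and 0.439 FPKM, Slc25a47 was above 0 in 1 library, and Slc25a45 was listed at 0 throughout.

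No carrier passed the test between PD and DMSO. limma was fitted on all 9741 genes of at least 1 FPKM with Benjamini-Hochberg adjustment. It called 0 of the 29 members, and 0.0308% of all genes higher in PD and 0.226% lower. In the same fit it called 0 of the 8861 protein-coding genes in either direction, so the members, all protein-coding, did not differ from these in calls. At an unadjusted p under 0.05 there were 3 members (Slc25a20, Slc25a28 and Slc25a5) and 561 of all genes. voom on recovered reads called 0 of the 6375 genes it could use, with 394 at an unadjusted p under 0.05; of these genes 23 were members, with 3 at that p. Data of 9741 genes were also simulated, taking the spread seen for each gene between its replicates as its true spread. Of 200 genes changed by 2 log2 units 0% were then recovered, and of 200 changed by 4 units 63% were. With a spread of 0.1 for every gene, 100% were recovered at 2 units. A spread from 2 libraries per group is itself uncertain, and the simulation gave all 4 libraries the same spread despite their unlike depth. These shares are therefore a rough guide only. An exact two-sided permutation test of 2 against 2 libraries cannot go below p = 0.333.

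Counted without a test, both PD libraries lay above both DMSO libraries for 5 members and below them for 2, and 22 overlapped. Over all tested genes 17.5% lay above and 18.3% below, 35.8% in all, and the members' share of 24.1% was under that background. The 5 were Slc25a20, Slc25a35, Slc25a28, Slc25a40 and Slc25a15, and the 2 were Slc25a5 and Slc25a32. Slc25a20 was the only one of the 7 with a mean of at least 10 FPKM. The median log2 difference of the 29 members was -0.00099, beside -0.02 over all tested genes, with 14 members above 0 and 15 below. For 24 of the 29, the difference between the groups was smaller than the larger of the gaps between replicates on the log2 scale. The DMSO libraries differed at least 2-fold for 7 members and the PD libraries for 9. The median was 0.11 without PD replicate 2, the shallowest library. With 1 library left out fewer values have to be separated, and the counts above and below were both higher in every case. The share over all genes was not counted there, so these counts are not read as a result about the members.

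**Figure D2:**
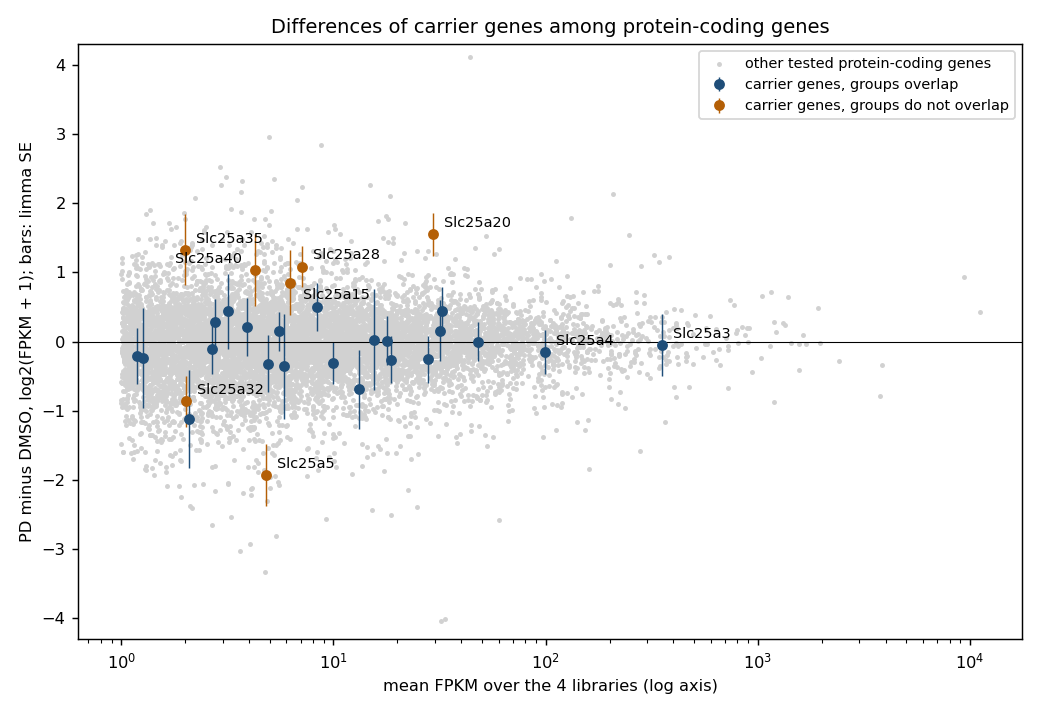
Log2 difference between PD and DMSO against the mean level (log axis) for the 29 carrier genes, with limma standard errors as bars, over the other tested protein-coding genes in grey. Orange points are the 7 members whose groups do not overlap, from Slc25a5 at -1.92 to Slc25a20 at 1.55, and the highest members, Slc25a3 and Slc25a4, lie near 0.

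**Figure D3:**
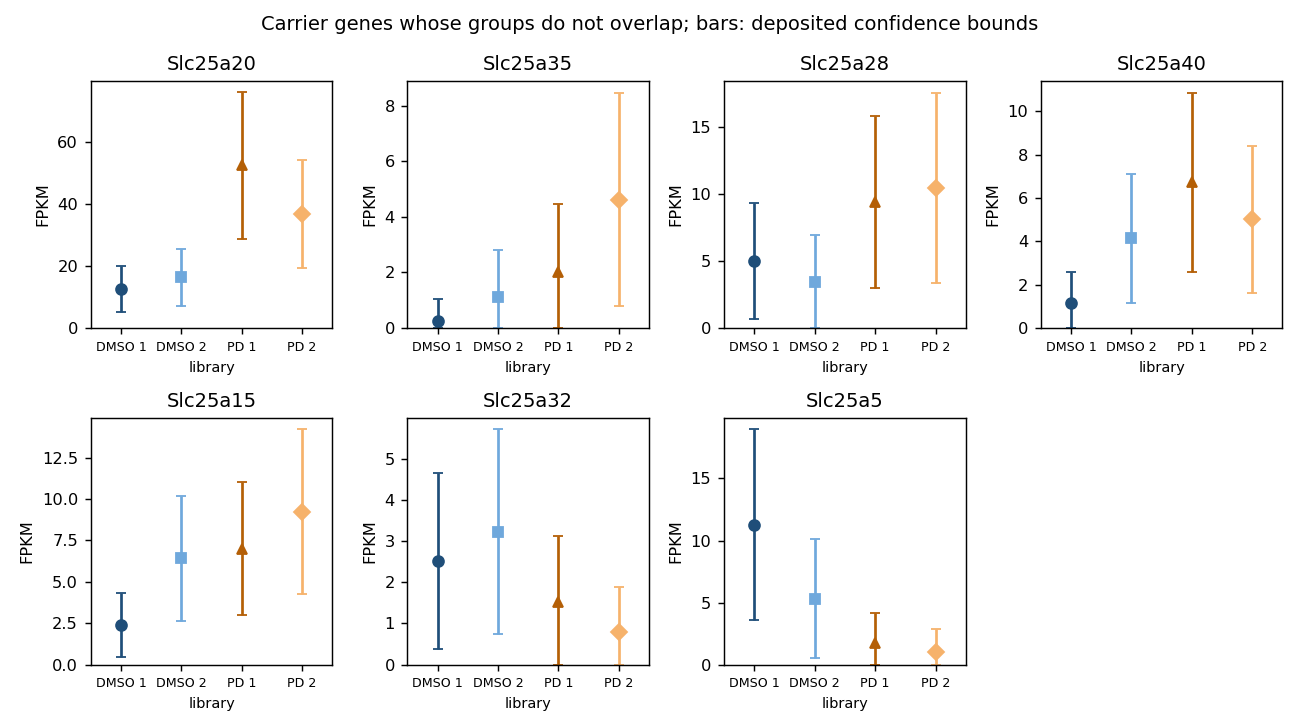
FPKM of the 7 carrier genes whose groups do not overlap, by library, with the deposited lower and upper confidence bounds as bars and each linear axis starting at 0. The bounds of a PD and a DMSO library are separate in 2 of 4 pairs for Slc25a20, in 1 of 4 for Slc25a5 and Slc25a40 and in none for the other genes.

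Of the 23 members under 1 FPKM, 4 were listed at 0 in every library (Slc25a2, Slc25a45, Slc25a48 and Slc25a54) and 7 were above 0 in 1 library only. Those 7 were Ucp1, Slc25a18, Slc25a21, Slc25a24, Slc25a27, Slc25a29 and Slc25a47. Without being tested, Slc25a31 was higher in both PD libraries than in either DMSO library, and Slc25a41, Slc25a42 and Ucp3 were lower. Slc25a41 and Ucp3 were listed at 0 in both PD libraries. Slc25a42 was at 0.364 and 0.565 FPKM in DMSO and at 0 and 0.361 in PD. Depth and treatment cannot be told apart in these directions, and the share over all genes under 1 FPKM was not counted. The number of members above 0 was 45 and 44 under DMSO and 36 and 34 under PD, lower in the shallower group, and depth and treatment cannot be told apart in this count. Several low members neighbour each other: Slc25a41 and Slc25a23 lie 2.1 kb apart on chromosome 17, Slc25a54 and Slc25a24 6.6 kb apart on chromosome 3, and Slc25a29 and Slc25a47 15.3 kb apart on chromosome 12. Each gene of these pairs averaged under 1 FPKM. On the X chromosome Slc25a43, with a mean of 0.439 FPKM, ends 18.3 kb before Slc25a5.

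Genes that carry the proteins into the membrane, the TOM complex, small TIM chaperones and TIM22 complex, had no member that passed. All 16 were tested, of which 3 lay above and 5 below in both PD libraries, or 50% without overlap. Over all tested genes 17.5% lay above and 18.3% below, 35.8% in all. The median log2 difference of the 16 was -0.28. That median was -0.01 without PD replicate 2, -0.08 without DMSO replicate 1 and 0.08 with voom. Tomm5, a small TOM subunit, was at 38.3 and 11.9 FPKM in DMSO and at 9.61 and 4.93 in PD. Timm29, a subunit of TIM22, was at 2.55 and 1.9 FPKM in DMSO and at 0.628 and 0.723 in PD, and Agk, its lipid kinase partner, at 2.78 and 1.43 against 0.691 and 1.06. Tomm7, which tunes the assembly of TOM, went the other way, at 127 and 137 FPKM in DMSO and 231 and 210 in PD (limma adjusted p = 0.825). The presequence import machinery, which serves matrix proteins, had a median of 0.05 over 11 tested genes, with 2 above and 1 below. This was 27.3% without overlap, beside the 35.8% of all tested genes. In this list Timm17a was at 23.2 and 19.0 FPKM in DMSO and at 11.1 and 15.0 in PD, and Timm17b at 13.5 and 15.3 against 17.3 and 23.0. Pmpcb, a processing peptidase subunit, and Romo1 overlapped between the groups. Pam16 and Timm23, also on this list, were listed at 0 in every library and were not compared.

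Other transporters of the mitochondrion also had no member that passed, with a median of 0.18 over 16 tested genes. Of these, 4 lay above and 2 below in both PD libraries, 37.5% without overlap beside 35.8% of all tested genes. The median was -0.01 without DMSO replicate 1 and -0.02 without PD replicate 1. Mpc2, a subunit of the pyruvate carrier, had the largest difference of these lists: it was at 1.79 and 9.08 FPKM in DMSO and at 23.9 and 24.8 in PD, a log2 difference of 2.26 (SE 0.67; limma adjusted p = 0.803). That difference was 1.33 without DMSO replicate 1 and 3.19 without DMSO replicate 2. Recovered reads for Mpc2 were 5 and 36 in DMSO and 31 and 14 in PD. Mpc1, also on this list, was at 1.07 FPKM in DMSO replicate 1 and was listed at 0 elsewhere. The list held 21 genes, and those averaging under 1 FPKM, Mpc1 among them, were not compared. Letm1, a cation exchanger, was at 7.04 and 6.51 FPKM in DMSO and at 6.09 and 2.81 in PD, and Smdt1, a regulator of the calcium uniporter, and the sodium/calcium exchanger Slc8b1 overlapped.

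Genes of fatty acid oxidation, the pathway that Slc25a20 serves, went both ways. Of 19 tested, 6 lay above and 4 below in both PD libraries and 9 overlapped, with a median of -0.06 and 0 that passed. This was 52.6% without overlap. Over all tested genes it was 35.8%, with 17.5% above and 18.3% below. Acaa2, the thiolase of the last step, was at 27 and 39 FPKM in DMSO and at 65.3 and 95.8 in PD, and its log2 difference was 1.26 (SE 0.34; limma adjusted p = 0.803). Etfdh, which hands electrons to ubiquinone, was at 1.45 and 6.09 FPKM in DMSO and at 7.17 and 7.74 in PD, and Hadhb, a subunit of the trifunctional protein, at 0.591 and 1.59 against 2.24 and 2.29. Cpt1b, the muscle form of the enzyme that makes acylcarnitine, was lower in both PD libraries, at 0.881 and 2.72 FPKM in DMSO and 0.345 and 0.397 in PD.

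**Figure D4:**
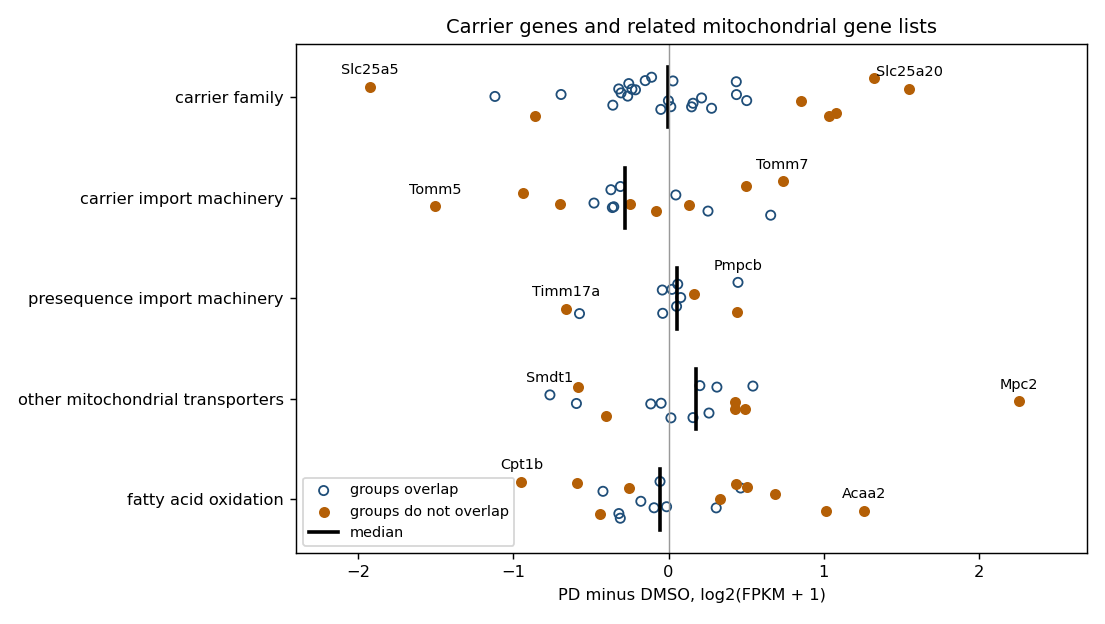
Log2 differences between PD and DMSO of the carrier genes and of 4 related lists, each point a gene of at least 1 FPKM, with a black bar for the median of the list. Filled points have no overlap between the groups; medians lie between -0.28 and 0.18, and single genes from Slc25a5 at -1.92 to Mpc2 at 2.26.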

How the data were processed

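Ribosome footprints of 4 libraries were analysed from 1 table of 25170 genes. The authors deposited FPKM values with confidence bounds, in the layout of a Cufflinks tracking table, per the file headers. FastQC, Trimmomatic, Bowtie2, STAR, Cufflinks and mm10 are listed in the submitters' processing notes; versions, strand settings and the sharing of reads between copies are not given in the sources used here. Left out was 1 gene of failed status. Starts were raised by 1, which made 14624 equal to RefSeq of GRCm38.p6, where 24976 symbols were found.

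Relative depth was read from the FPKM steps. Whole reads, the smallest numbers within 0.02 of whole in every library, were recovered for 69.7% of 10161 genes that no library lists at 0, against 0.925% with wrong steps, and equalled the true reads for 93.3% of recovered genes in simulated data. They cover counting error only.

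The test used limma 3.58.1 (R 4.3.3) on log2(FPKM + 1) of the 9741 genes averaging at least 1 FPKM, with group as the only term, eBayes with a trend and Benjamini-Hochberg adjustment across all of them at a threshold of 0.05. On this scale the change of a low gene is understated. Values of every library are given for the 12 highest members, for members of at least 1 FPKM whose groups do not overlap, for the 2 highest of each role, and for further members where they help; from each related list up to 4 genes with the largest differences are named. Of the carrier genes, 1 is counted but not reported by name here. Rangrf was named after its values were seen. The members and lists were chosen with earlier results of these data known.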

Additional observations from a re-analysis of the deposited data

How the results depend on the processing

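0 carrier genes passed under every alternative run: pseudocounts of 0.1 and 5, no filter and a filter of 5 FPKM, quantile normalization, a table rescaled without small RNA genes, the replicate block, no variance trend, a threshold of 0.1, protein-coding genes only, leaving out each library, and voom on recovered reads, which was added after the data were seen. The log2 differences of the 7 members without overlap kept their sign in all of these that tested them; Slc25a20 ranged from 1.3 to 1.8, Slc25a28 from 0.70 to 1.3, Slc25a15 from 0.29 to 1.42, Slc25a40 from 0.41 to 1.66, Slc25a35 from 0.53 to 2.23, Slc25a5 from -2.49 to -1.03 and Slc25a32 from -1.3 to -0.36. The family median was -0.087 without the filter and -0.046 to 0.11 with 1 library left out. Members above numbered 3 with a filter of 5 FPKM and 6 to 13 with 1 library left out. Members below numbered 5 without a filter, 0 with a filter of 5 FPKM and 6 to 12 with 1 library left out. The share over all genes was not counted in these settings, so these counts are not read as a result about the members. Over all genes, 3 passed higher and 22 lower, against 0 and 0 among protein-coding genes and with voom, and 0 to 27 and 0 to 20 with 1 library left out. With the replicate block, 2 passed higher and 17 lower, and no member's call changed; same-numbered libraries deviated together at a correlation of 0.204 across protein-coding genes, but with 2 pairs the labels do not say that the numbers pair samples. The carrier import median was -0.079 with a filter of 5 FPKM, 0.085 with voom and -0.45 to -0.0072 with 1 library left out. The median of other transporters was 0.015 with that filter, 0.43 with voom and -0.020 to 0.23 with 1 library left out. The fatty acid oxidation median was 0.15 with that filter, and the presequence import median 0.0097 to 0.20 with 1 library left out. Romo1 ran from -1.34 without PD replicate 1 to 0.19, the other sign, without PD replicate 2. The causes were not tested. Where 1 library is left out, a lone library is assumed to vary like the other group. Some members under 10 FPKM, such as Slc25a32, rested on 2 recovered reads or fewer in PD replicate 2.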
